A study of Mus musculus with 2 samples.

Results

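The genes described here are the segments and constant regions of the T cell receptor, in a study of open chromatin in mouse regulatory T (Treg) cells with and without transketolase (Tkt). Members were the peaks whose assigned gene symbol begins with Tra, Trb, Trd or Trg followed by v, d, j or c and, optionally, a number. They made up 53 of the 54120 peaks in both lists, with 31 of 34440 peaks in the wild-type (WT) list and 22 of 19680 in the knockout (cKO) list, and carried 29 gene symbols. The symbols, and no peak height, chose the members. The assay was ATAC-seq, in which the Tn5 transposase inserts sequencing adapters into accessible DNA. The cells came from spleen and lymph node of C57BL/6 females aged 7 weeks, which the labels call chimeric, and were gated as CD4+CD25+YFP+, with 50000 cells per reaction. The WT library came from Foxp3cre/+ mice and the cKO library from Foxp3cre/+ TKTfl/fl mice, so both carried the Foxp3-driven Cre, which acts in cells that express Foxp3. The series title places the comparison in a study of how the non-oxidative pentose phosphate pathway, of which Tkt is an enzyme, controls Treg function.

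There was 1 library per genotype, so replicate spread is unknown for every difference below and no p-value is given. Read totals were not used here and the depth of each library is unknown. The authors gave each peak a score whose meaning is not stated, and it is used here only as a percentile within its own list, where 100 is the strongest peak. A peak counted as shared when a peak of the other list overlapped it by at least 1 bp, which held for 56.1% of all WT peaks and 97.6% of all cKO peaks. Positions are on mm10, counted from 1. Of the 9 Treg and CD4 T cell markers examined, 8 had a peak in both lists, among them Foxp3, Il2ra, Ikzf2, Ctla4 and Cd4, while Cd3g had none in either. Peaks also lay at 6 of 9 myeloid markers in each list, at 4 (WT) and 5 (cKO) of 9 CD8 T and NK markers, and at 3 of 6 thymocyte markers in each. A peak at a marker gene therefore does not by itself identify a cell type here. In bulk cells, a region open in fewer cells and a region less open in every cell cannot be told apart.

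T cell receptor genes are not whole in the germline. In developing thymocytes the RAG recombinase joins 1 V segment to a J segment in the Tra and Trg loci, and a V, a D and a J segment in the Trb and Trd loci, and the joined exon is spliced to a constant (C) region. Each V segment has its own promoter, and enhancers near the C regions drive the rearranged gene in mature T cells. The Trd segments lie inside the Tra locus, between most of the Trav segments and the Traj segments, and are cut out of a chromosome when a Trav segment joins a Traj segment. Other segments that lie between a joined pair can be lost in the same way. Where a peak is weak or absent below, lost DNA and closed DNA cannot be told apart. Treg cells carry an alpha-beta receptor, built from Tra and Trb, and the delta and gamma chains belong to a separate lineage of T cells.

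Member peaks lay in the alpha and beta loci, and none carried a symbol beginning with Trd. In the WT list 19 member peaks were assigned to Trb and 12 to Tra, and in the cKO list 15 and 7. By type, the WT members comprised 18 peaks of V genes, 2 of D genes, 7 of J genes and 4 of the C gene Trac. The cKO members comprised 14, 1, 4 and 3. RefSeq lists 53 segments and C regions for Trb, 191 for Tra, 11 for Trd and 15 for Trg. A WT peak of any assigned gene lay over 20 of the Trb entries and over 9 of the Tra entries, and a cKO peak over 15 and 2. The beta locus was therefore covered in a larger share of its segments than the alpha locus in each library. This share depends on how segments are packed, since 1 peak can cover several J segments, and 7 of the covered Trb entries in each list were J segments. Of the Tra entries, 74 were Trav segments with d or n in their names, from duplicated blocks, and 0 of these had a peak over them.

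**Figure D1:**
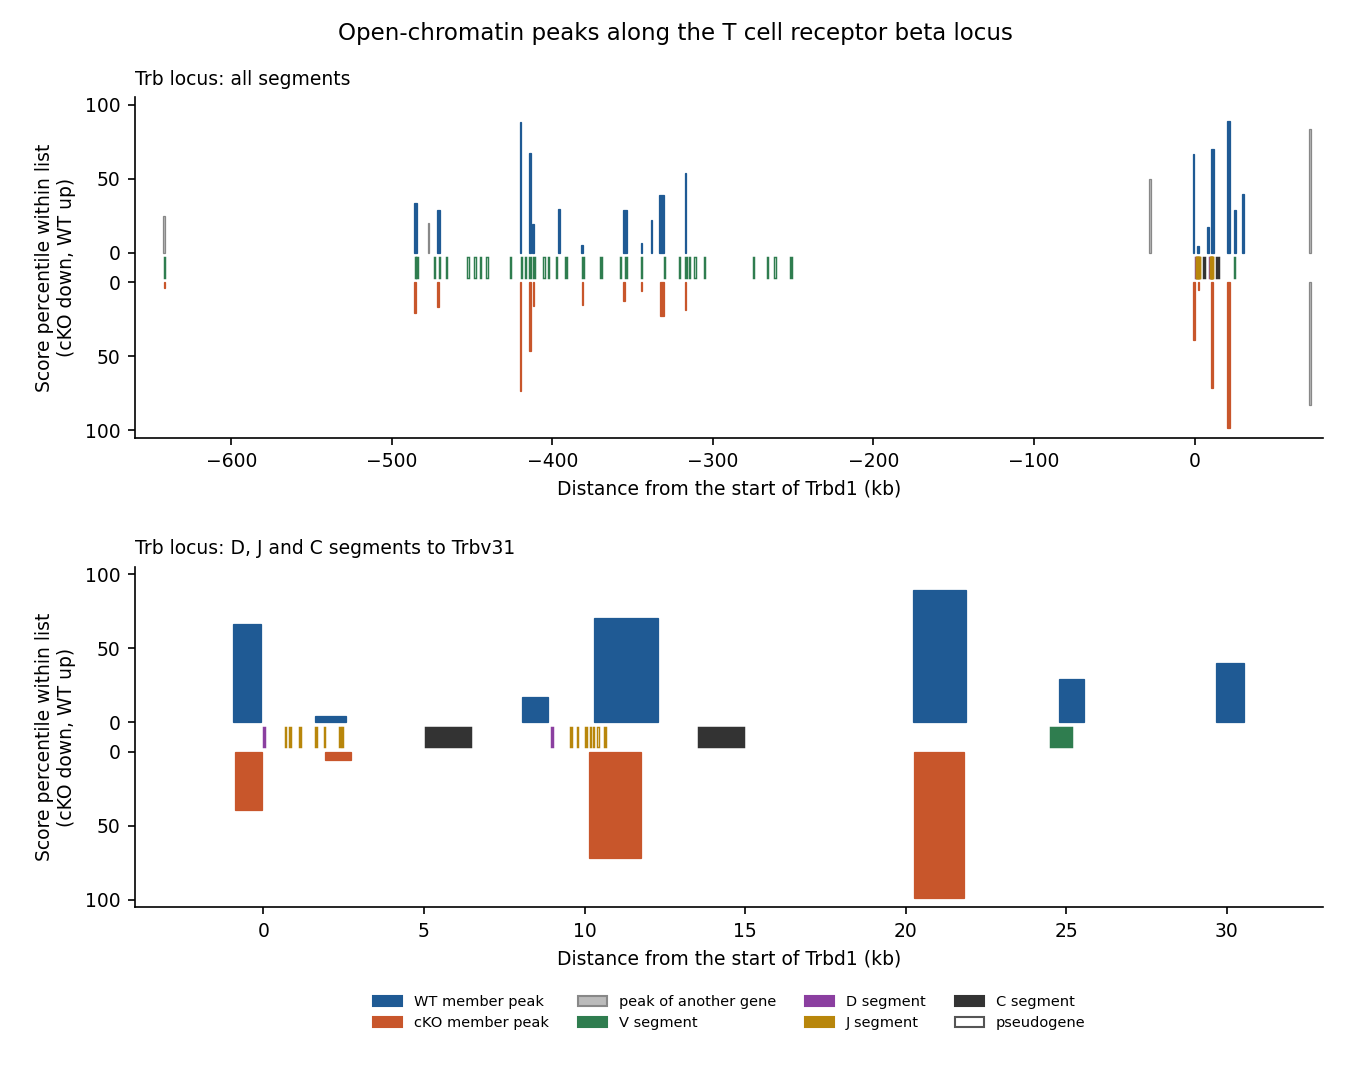
Peaks along the Trb locus, with distance from the start of Trbd1 in kb on the x axis and the score percentile within each list on the y axis, WT upward and cKO downward. Bars are peaks, coloured for members and grey for other genes, the middle row shows RefSeq segments (open boxes are pseudogenes), narrow features are drawn at a minimum width, and the tallest bars in both lists are the peak between Trbc2 and Trbv31 and, among the upstream V segments, the peak at Trbv12-1.

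The upstream Trbv segments formed a run of mostly weak peaks that recurred in both libraries. Between Trbv1 and Trbv30, a stretch of 390.7 kb on chromosome 6, there were 14 WT and 11 cKO peaks, or 35.8 and 28.2 peaks per Mb, against 12.7 and 7.24 per Mb over each whole list. Trbv12-1 had the strongest V promoter peak, at 41113002 to 41113879 in WT (percentile 88.1) and 41113017 to 41113739 in cKO (percentile 73.3). Its neighbour Trbv12-2 followed, at 41118323 to 41119603 in WT (percentile 67.5) and 41118400 to 41119603 in cKO (percentile 46.4). Trbv23 came next in WT, with a peak at 41215630 to 41216586 at percentile 53.6, and stood at percentile 18.5 in cKO. These 3 peaks sat across the start of their segment, and no other V promoter peak stood above the median score of WT. In the cKO list no V promoter peak stood above the median score except that of Trbv12-1.

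The other Trbv peaks at or near a segment start scored below the median in both libraries. Trbv2, Trbv5, Trbv13-2, Trbv16, Trbv19, Trbv20 and Trbv21 had WT percentiles from 4.80 at Trbv16 to 39.0 at Trbv21, and cKO percentiles from 5.82 at Trbv20 to 23.0 at Trbv21. All 7 peaks were shared. Trbv1, the segment farthest upstream, had a cKO peak at 40891210 to 40891868 (percentile 4.02) that overlapped a WT peak at 40890810 to 40891746 (percentile 24.4). The WT peak was assigned to the predicted gene Gm38276, so the absence of Trbv1 from the WT members is a matter of naming. Likewise the 2070 bp WT peak named Trbv2 also covered Trbv3.

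Peaks lay over Trbv segments outside the RefSeq pseudogene class and over no Trbv pseudogene. Of 22 Trbv segments that RefSeq does not class as pseudogenes, 13 had a WT peak over them and 8 a cKO peak, and all 8 were among the 13. With 1 kb added on either side the counts were 13 and 12. Of 13 Trbv pseudogenes, 0 had a peak over them or within 1 kb in either list. Several Trbv segments are members of families of similar copies, and how the authors treated reads that match more than 1 place is not given in the sources used here. Its part in which segments had a peak was not tested.

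Of the 4 WT peaks of beta V genes without a cKO partner, 3 lay over 1 kb from the start of the segment. A WT peak 1760 bp downstream of the start of Trbv14, at 41136905 to 41137365, was 461 bp wide, narrower than the narrowest cKO peak anywhere (465 bp). A second lay 6350 bp downstream of Trbv20, at 41194623 to 41195147. Trbv31 lies in reverse orientation beyond the C regions, and its promoter peak at 41557982 to 41558772 (percentile 28.9) and a peak 4486 bp upstream at 41562857 to 41563742 (percentile 39.8) had no cKO partner. Downstream of Trbv23 came the longest interval without a peak in the locus. A gap of 288.4 kb in WT and 316.0 kb in cKO held 7 V segments and the trypsinogen genes Prss1, Try4, Try5 and Try10, none of which had a peak in either list.

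The D and J segments of Trb carried peaks above the median score at the first D segment in WT and over the second J cluster in both libraries. Trbd1 had a peak that ended 87 bp before the segment in WT (41532253 to 41533114, percentile 66.5) and 41 bp before it in cKO (41532321 to 41533160, percentile 39.3), which is where the germline promoter of Trbd1 is known to lie. Trbd2 had the corresponding peak in WT, ending 111 bp before the segment (41541241 to 41542052, percentile 17.0), and no cKO peak overlapped it. The peak over the second J cluster ran from 41543495 to 41545500 in WT (percentile 70.3) and from 41543349 to 41544965 in cKO (percentile 71.6). It was named Trbj2-6 in WT and Trbj2-4 in cKO because its edges fell differently, and both versions covered Trbj2-5, Trbj2-7 and Trbj2-6, which RefSeq classes as a pseudogene. The first J cluster gave a weak shared peak, named Trbj1-5 in WT (percentile 4.11) and Trbj1-6 in cKO (percentile 5.30). With such renamed pairs, 16 member symbols occurred in both lists, 9 in WT alone and 4 in cKO alone, and 3 of those 4 (Trbv1, Trbj1-6 and Trbj2-4) named a region that was open in both.

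No peak was assigned to either beta constant gene, Trbc1 or Trbc2, or lay within 1 kb of them. The strongest beta peak was assigned to Trbv31 but lay 5249 bp beyond the end of Trbc2 and 2608 bp before the near end of Trbv31 in WT, at 41553430 to 41555085. The cKO peak covered 41553455 to 41555027. The beta enhancer is known to lie in this interval between Trbc2 and Trbv31, although no file used here marks its limits. In WT it stood at percentile 89.2 (rank 3708 of 34440) and in cKO at percentile 98.6 (rank 281 of 19680).

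**Figure D2:**
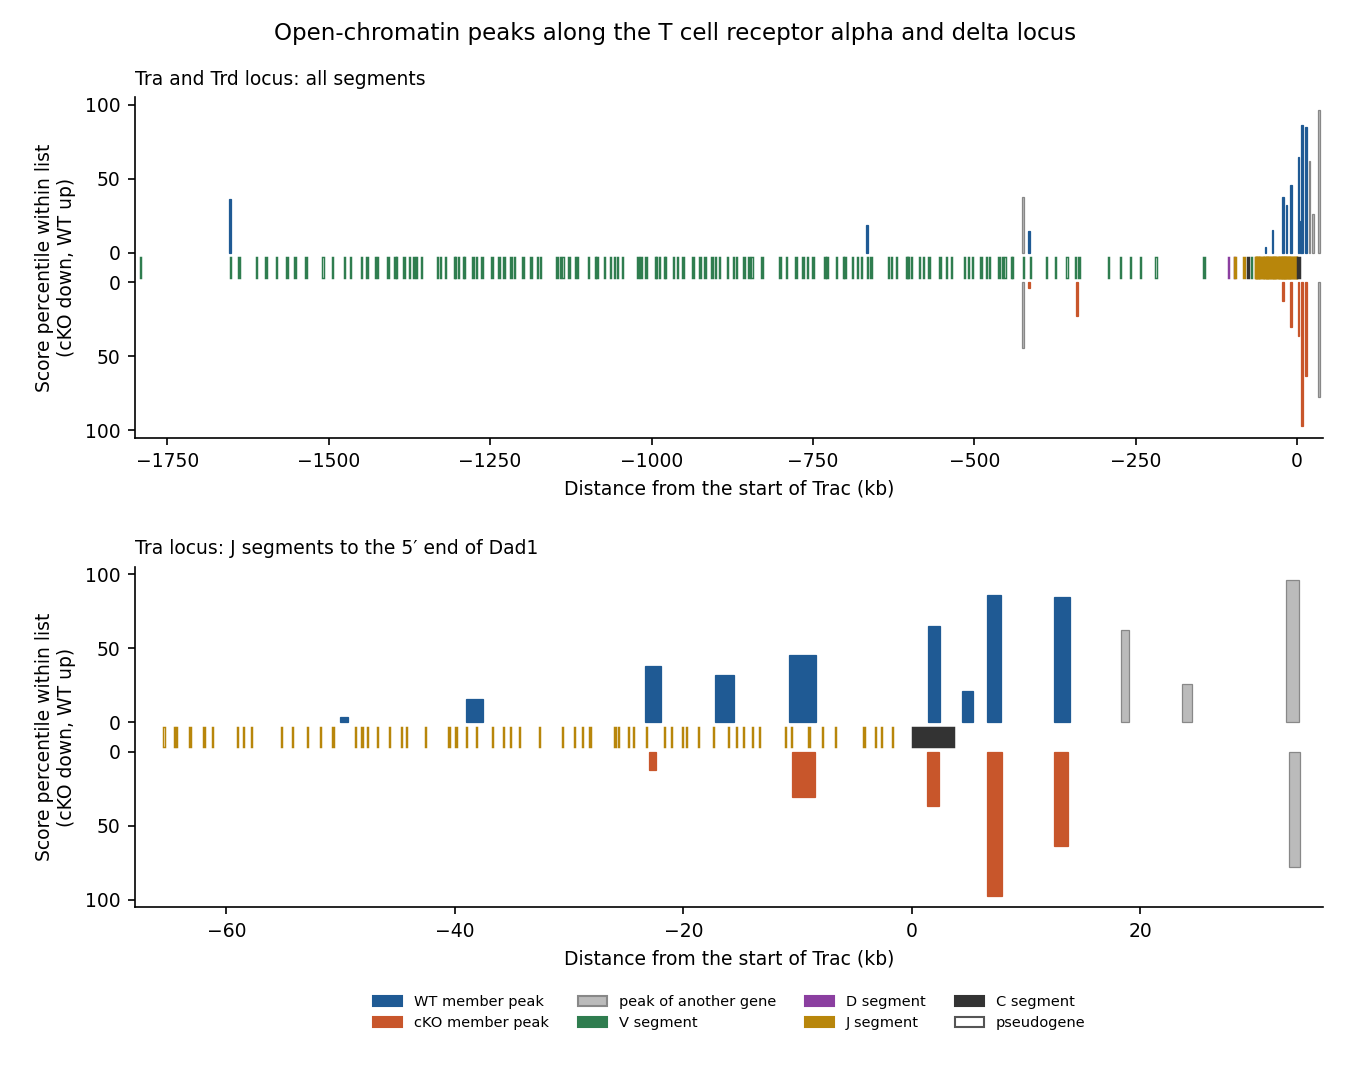
Peaks along the Tra and Trd locus, drawn as for Trb, with distance from the start of Trac in kb on the x axis. Peaks crowd into the J segments, Trac and the interval up to Dad1, and the V segments to the left and the Trd segments between them are nearly or wholly without peaks.

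The alpha V array was nearly empty of called peaks. Over 1550 kb from Trav1 to Trav23 on chromosome 14 there were 4 WT and 3 cKO peaks, or 2.58 and 1.94 per Mb. Of 130 Trav segments, 2 had a WT peak over them and 0 had a cKO peak. Those 2 were Trav2, at 52566308 to 52567817 (percentile 36.4), and Trav14-1, at 53553202 to 53554470 (percentile 18.3), both without a cKO partner. The WT peak 2168 bp upstream of Trav17, at 53803910 to 53804471 (percentile 14.8), had a cKO partner at 53803893 to 53804473 (percentile 4.23).

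Long stretches of Trav segments held no peak at all. In WT the gap from 52567818 to 53553201 measured 985.4 kb and held 95 V segments, and 1.35% of the gaps between neighbouring WT peaks were as long. In cKO a gap of 1478 kb held 122 V segments, and 1.64% of the cKO gaps were as long. Much of this stretch consists of duplicated blocks whose segments carry d or n in their names. Of 74 such segments 0 had a peak within 1 kb in either list, against 3 (WT) and 1 (cKO) of the other 56 Trav segments. How the authors counted reads from near-identical copies is not given in the sources used here, and its part in these zeros was not tested.

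One alpha V peak was found in the cKO list alone. It lay 2323 bp downstream of the start of Trav21-dv12, a segment that can join to alpha or delta J segments, at 53878307 to 53878951 (percentile 22.7). It was the single member of the cKO list that no WT peak overlapped. A further peak next to a V segment was outside the members by name. It was assigned to B230359F08Rik, was shared (percentile 37.6 in WT and 44.5 in cKO), and lay 122 bp (WT) and 117 bp (cKO) from Trav13-5.

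The J segments of Tra had 5 peaks in WT and 2 in cKO, from lists of 34440 and 19680 peaks, and those nearer to Trac tended to score higher. Along the chromosome the 5 WT peaks were named Traj48 (percentile 3.69), Traj36 (15.5), Traj22 (37.8), Traj15 (32) and Traj7 (45.7). In cKO 2 of them had a partner, at Traj22 (percentile 12.6) and Traj7 (percentile 30.2), a share of 40% (11.8 to 76.9) against 26.3% of WT peaks of like score. The Traj7 peak ran from 54209740 to 54212134 in WT and from 54210011 to 54212006 in cKO. Of 60 Traj segments, 6 had a WT peak over them and 1, Traj7, had a cKO peak, and 2 of the 6, Traj36 and Traj8, are pseudogenes in RefSeq. From the first Traj segment to the end of Trac there were 86.7 WT and 43.4 cKO peaks per Mb.

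Trac, the alpha constant gene, was the one C gene among the members with peaks, and no other member gene had as many in either list (4 in WT and 3 in cKO). A peak inside the gene, 1381 bp past its start in WT (54221902 to 54222955, percentile 64.8), stood at percentile 36.5 in cKO (54221876 to 54222893). Beyond the gene, 3 WT peaks lay in the 11.3 kb between the RefSeq end of Trac and the end of Dad1, a gene of the oligosaccharyltransferase complex. This interval is known to hold the alpha enhancer and the locus control region, and no file used here marks their limits.

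The middle peak of this interval was the strongest of the locus in both libraries. It began 2901 bp past the end of Trac in WT (54227099 to 54228350, percentile 86.1, rank 4795) and 2933 bp past it in cKO (54227131 to 54228393, percentile 97.5, rank 497). The peak nearest to Dad1 lay at 54232934 to 54234353 in WT (percentile 84.6) and 54232974 to 54234166 in cKO (percentile 63.7). The weakest, at 54224940 to 54225838 (percentile 21.2), had no cKO partner. By name, Dad1 had 2 intronic WT peaks and none in cKO. The promoter peak of its neighbour Abhd4 was shared (percentile 96.1 in WT and 77.5 in cKO). By the distances given for the Dad1 peaks, this Abhd4 peak also spans the start of Dad1 in both lists. The lack of a Dad1 promoter peak is therefore a matter of naming.

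The segments with Trd symbols had no peak, and the gamma locus held few peaks, at a density near that of the whole lists. No WT or cKO peak was assigned to any of the 11 Trd segments or lay within 1 kb of one, and the 74.2 kb from Trdv4 to Trdv5 held 0 peaks in both lists. At the whole-list densities of 12.7 (WT) and 7.24 (cKO) peaks per Mb, a stretch this short would hold few peaks. The Trg locus held 2 WT peaks and 1 cKO peak in 174.3 kb, or 11.5 and 5.74 peaks per Mb. With so few peaks, 1 more or fewer would change these densities much. A count of 0 allows a share of up to 0.00871% in WT and 0.0152% in cKO, for counting error only. No symbol began with Trg either, because the authors' annotation names gamma genes Tcrg. Under that name there were 6 WT peaks, of which 2 were shared (33.3%, against 34.8% of WT peaks of like score), and 2 cKO peaks, both shared (97.3% of cKO peaks of like score were).

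Few of these gamma peaks lay in the body of the locus. In WT, 1 covered the start of the segment Trgv7 on chromosome 13 (19177564 to 19178259, percentile 44.2) and had no cKO partner. A peak 2029 bp upstream of the segment named Tcrg-V4 was shared, at percentile 41.5 in WT and 14.8 in cKO. The remaining 4 lay outside the span from the first to the last RefSeq gamma segment, up to 38658 bp from the start of the gene they were assigned to. They included the WT peaks of the gamma C gene Tcrg-C4, at percentiles 17.4 and 45, and the stronger one had a cKO partner at percentile 32.3. Among 9 markers of gamma-delta T cells, 6 had a WT peak and 3 a cKO peak, with 13 and 3 peaks in all, and Il17a, Il23r and Cd163l1 had none in either. Of the 13, 3 were shared (23.1%, 8.18 to 50.3), against 56.1% of all WT peaks. The median percentile of the 13 was 41.9, and 47% of all WT peaks in the score decile of that percentile were shared. The cells were gated as CD4+CD25+YFP+, and the part of any gamma-delta cells in these peaks was not tested.

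Sharing between the libraries was next compared with all peaks. Of the 31 WT members, 20 were overlapped by a cKO peak (64.5%, 95% Wilson interval 46.9 to 78.9), against 56.1% of all WT peaks, which lies inside the interval. The members were weaker than the list as a whole, with a median percentile of 32. WT peaks in the same score deciles as the members were shared at 40.8%, below the interval, and WT peaks in the same score decile and the same width quartile within it at 48.3%, inside it. Intervals cover counting error alone, since neighbouring peaks are not independent.

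By locus, the beta members were shared at 14 of 19 (73.7%, 51.2 to 88.2) and the alpha members at 6 of 12 (50%, 25.4 to 74.6), and these intervals overlap. Peaks of like score and width gave 45.2% for the beta members, below their interval, and 53.2% for the alpha members, inside theirs. All 8 WT members in the upper 4 score deciles were shared, where 83.7%, 94.7%, 98.8% and 99.5% of all WT peaks were shared from the lowest of these deciles to the highest, so this count is near the background. The 11 unshared members lay in the lower 5 deciles, where 11 of 22 members were shared. Of all WT peaks in these deciles, 6.68%, 14%, 21.1%, 32% and 47% were shared, from the lowest decile to the highest. The unshared members were Trav2, Trav14-1, Traj48, Traj36, Traj15, Trbv14, Trbd2, 2 peaks of Trbv31 and 1 each of Trac and Trbv20. On the cKO side, 21 of 22 members were overlapped by a WT peak (95.5%, 78.2 to 99.2), against 97.6% of all cKO peaks.

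**Figure D3:**
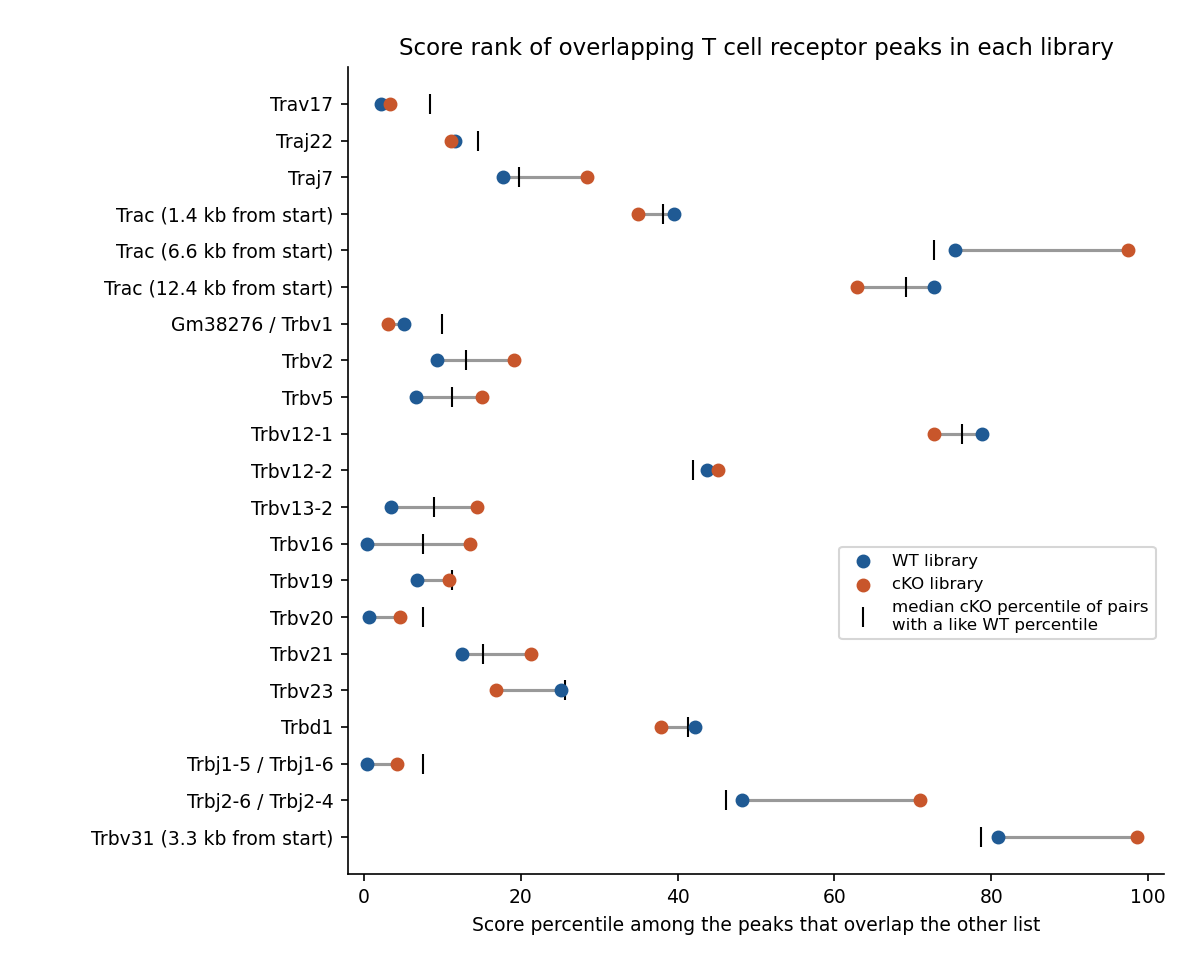
Score percentile of each overlapping pair with a member in either list, taken among the peaks that overlap the other list, in the WT (blue) and cKO (orange) library, with pairs in chromosome order. Black ticks mark the median cKO percentile of all pairs with a like WT percentile, and the largest shifts to the right of the ticks are the middle Trac peak beyond the gene, the Trbj2 peak and the Trbv31 peak.

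The order of strength among the shared member peaks was much alike in both libraries, and 3 regions moved up by over 17 points in cKO. Ranks were taken among the 19313 WT and the 19216 cKO peaks that overlap the other list, which removes most of the difference in list length. Of 21 pairs with a member on either side, 14 had a higher percentile in cKO (66.7%), against 47.8% of all 19378 pairs, and the median shift was 4.06 points, against -0.443 over all pairs. Within whole lists the direction was the opposite, with a lower percentile in cKO in 16 of the 21 pairs (89.4% of all pairs), and the 5 that stood higher included those 3 regions. Spearman's rho of these percentiles was 0.92 across the 21 pairs and 0.89 across all pairs, a description of pairs that all come from the same 2 libraries.

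The largest rises were at 1 Trac peak, the Trbv31 peak beyond Trbc2 and the second Trbj cluster, while the other shared Trac peaks fell, from 39.6 to 35 inside the gene and from 72.7 to 62.9 next to Dad1. The Trac peak 6578 bp past the gene's start rose from percentile 75.3 to 97.4 among shared peaks, and 0.518% of the 965 pairs with a WT percentile within 2.5 points of it stood as high in cKO. The Trbv31 peak beyond Trbc2 rose from 80.9 to 98.5, a level met by 0.31% of its 968 like pairs. The peak over the second Trbj cluster rose from 48.2 to 70.9, met by 5.33% of 975 like pairs. Within whole lists this Trbj peak stood at 70.3 in WT and 71.6 in cKO. These regions were picked as the largest rises of 21 pairs, on ranks chosen after seeing the data. The percentages therefore describe where the peaks stood and test nothing. The other 18 pairs, from Trav17 to Trbj1, shifted by between -9.81 points (the Trac peak nearest to Dad1) and 13.1 points (Trbv16), and 25% of all pairs fell by 7.9 points or more and 25% rose by 7.35 or more.

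**Figure D4:**
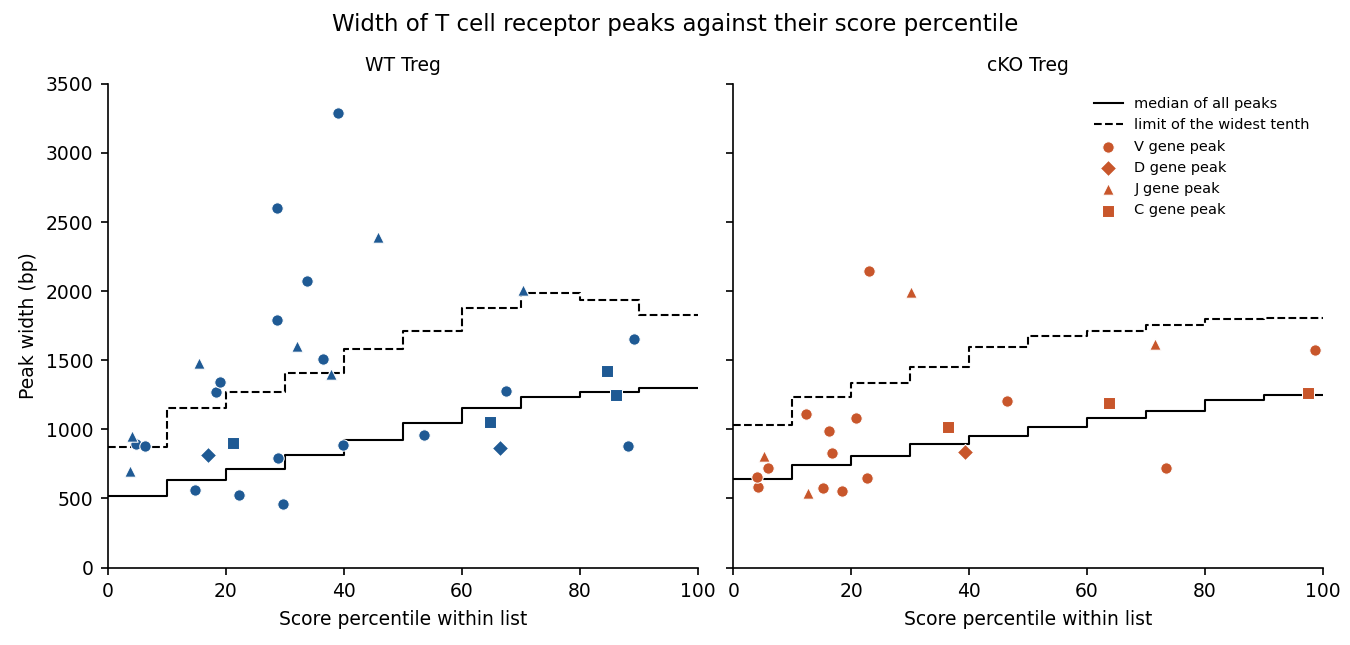
Width in bp of each member peak against its score percentile, for the WT list (left) and the cKO list (right), with symbols for V, D, J and C genes. The solid line is the median width of all peaks in each score decile and the dashed line the limit of the widest 10%, and V and J gene peaks rise above the dashed line in WT at low scores.

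Peaks at V and J segments were wide for their score in the WT library. Of the 31 WT members, 14 (45.2%) fell among the widest 10.0% of peaks of their own score decile, and 23 were wider than the median of that decile. All 14 were V or J gene peaks of the promoter class, which the authors' annotation gives to peaks within 3 kb of a start site. In the cKO list 2 of 22 members (9.09%, against 10.0% of all cKO peaks), Trbv21 and Traj7, were among the widest, and 15 were above the median of their decile. With peaks of the promoter class as the background, 8 of 25 WT members were among the widest 10.0%. With a limit at the widest 5% the WT count was 6 of 31.

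Trbv21 had the widest member peak, at 41199496 to 41202782 in WT, where 0.241% of all peaks were as wide as its 3287 bp. It extended 3259 bp upstream of the start of the segment and 27 bp past it. In cKO it measured 2147 bp, at 41200402 to 41202548. Trbv19 measured 2599 bp in WT and 1110 bp in cKO, Traj7 2395 and 1996 bp, Trbv2 2070 and 1082 bp, and Trbv5 1791 and 826 bp. By contrast Trbv12-1, the strongest V promoter, was narrow for its score in both libraries, at 878 and 723 bp, with 9.12% and 7.67% of the peaks of its score decile as narrow.

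Widths fell from WT to cKO in nearly all overlapping pairs. The cKO peak was narrower in 19 of 21 member pairs (90.5%), against 84.1% of all pairs, and the median ratio of cKO to WT width was 0.813 against 0.839. For the 10 member pairs whose WT peak was among the widest of its decile the median ratio was 0.694, against 0.785 for the 2629 such pairs in the lists. The ratio was lowest at Traj22 (1403 bp in WT and 541 bp in cKO) and the 2 pairs with a wider cKO peak were Trav17 and the Trac peak at 6578 bp. Called width can move with sequencing depth, which is unknown here, and its part in this difference was not tested.

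Other genes of receptor assembly were taken from a list of 24, of which 15 had a WT peak and 14 a cKO peak. Their 62 WT peaks were shared at 40 (64.5%, 52.1 to 75.3), against 56.1% of all WT peaks. Rag1 and Rag2, which encode the recombinase, and Ptcra, which encodes the pre-receptor alpha chain of thymocytes, had no peak in either list. In all, 9 of the 24 genes had no assigned peak, the others being Prkdc, Xrcc4, Lig4, Nhej1, Cd3g and Ctcf. A lack of assigned peaks was thus not particular to Rag1, Rag2 and Ptcra. Dntt, whose product adds bases at the joints, had 2 shared peaks in each list, the higher at percentile 76.6 in WT and 73.4 in cKO. Cd3d and Cd247, which encode signalling chains that assemble with the receptor, shared all their WT peaks (2 and 1), and Cd3e shared 1 of 3. Among the factors known to act at the receptor enhancers, Runx1 shared 7 of 11, Ets1 3 of 5, Tcf7 5 of 6, Lef1 2 of 2, and Gata3 and Cbfb 1 of 1. The other genes of the list with a WT peak were Bcl11b, which had the most and shared 12 of 21, Rad21 (1 of 3), Xrcc5 (1 of 2), Xrcc6 (0 of 1) and Dclre1c (1 of 1). The flanking gene Ephb6, next to Trbv31, had 1 shared promoter peak at percentile 83.3 in WT and 83.2 in cKO.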

How the data were processed

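Each library has its own deposited peak list, with no pooling of libraries. The submitters' processing notes name the build mm10 and, in no stated role, MACS2, BWA, FastQC and Trimmomatic. The sources used here do not give versions, caller settings, duplicate removal or any Tn5 read shift. For each peak the authors deposited position, width, a score and 1 assigned gene. The lowest score was 1.31 in WT and 1.34 in cKO. The labels give the molecule as RNA, although ATAC-seq reads DNA.

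Overlaps, percentiles, score deciles and Wilson 95% intervals were computed in Python 3.11.15 with pandas 2.3.3. The overlap code was tested on simulated data and differed from bedtools 2.31.1 at 0 of 34440 WT peaks. Segment positions came from RefSeq GRCm38.p6, the same assembly as mm10, and all 29 member symbols matched with overlapping positions. RefSeq promoter sequences matched 0 of the 29, so no sequence is printed. Genes were named by rule: each C and D gene with a peak, the V and J genes with the strongest, most and strongest unshared peaks, cKO peaks without a WT partner, and the peaks farthest from a start. Members and lists were chosen with earlier results of these data known, and other genes were named after their values were seen.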

Additional observations from a re-analysis of the deposited data

How the results depend on the processing

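No paired analysis was possible because there was a single library for each genotype, which also left no replicate to omit. The planned motif search was not run, since no member has a promoter sequence in the tables used. The share of WT members with a cKO partner stayed between 54.8% and 68% with the stricter overlap, above the median scores, after removal of WT peaks narrower than every cKO peak, over all peaks within the loci, in the promoter class alone and without Trac and Trbv31. With the stricter overlap it was 54.8%, against 51.1% of all WT peaks, above the median scores 55.6% against 57%, and after the removal by width 66.7% against 60.9%. With the WT list reduced to its strongest 19680 peaks, 10 WT members were left and 100% of them were shared, against 83% of all WT peaks, while the share of cKO members with a WT partner was 45.5%, against 83% of all cKO peaks. Above the median scores, 9 WT and 5 cKO members were left, and 100% of those 5 were shared, against 99.4% of all cKO peaks. These counts fall by construction, since most members score below the median. The number of WT members among the widest of their score decile was 12 with 20 score bins, 8 against the promoter class, and 6 at the widest 5%, and in cKO it was 2 throughout. The last 3 settings, the omission of Trac and Trbv31, the background by width and the ranks among shared peaks were chosen after seeing the data.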

Other observations

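The immunoglobulin loci, which B cells rearrange to make antibodies, also gave peaks, most of them in the WT list. There were 20 WT peaks assigned to immunoglobulin segments and 3 in cKO, of which 16 WT peaks were named for Ighv segments of the heavy chain. They had a median percentile of 25.5, near the 32 of the T cell receptor members. A cKO peak overlapped 2 of the 20 (10%, 95% interval 2.79 to 30.1), at Ighv12-3 and Ighv1-12, whereas 20 of 31 T cell receptor peaks were shared (46.9 to 78.9). WT peaks in the same score deciles were shared at 31.8%, above the interval, and in the same score decile and width quartile at 32.4%. Among 9 B cell markers, 5 had a WT peak and 2 a cKO peak, with 8 and 2 peaks in all, and Ms4a1 and Pax5 had none in either list. Of those 8, 2 were shared (25%, 7.15 to 59.1), against 56.1% of all WT peaks. The median percentile of the 8 was 24.5, and 21.1% of all WT peaks in the score decile of that percentile were shared. The cells were gated as CD4+CD25+YFP+, and the part of any B cells in these peaks was not tested.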
